A study of Mus musculus with 7 samples.

Results

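The genes of glucose uptake, glycolysis, lactate handling and glycogen were followed in heat-producing brown adipose tissue taken from 7 mice of the diabetes-prone strain NOD/ShiLtJ. They were 33 gene names chosen as a pathway list, which matched 34 of 55487 genes in the deposited count table, since Aldoa stands there under 2 identifiers. Of the 34, 33 passed the filter on low counts. The gene left out is the second Aldoa model (chromosome 7, 126800790 to 126809108 on GRCm38), with 5 to 13 counts per library. RNA was compared between 4 mice injected under the skin for 7 days with CB-100 and 3 sham mice given KRBH buffer. Brown adipocytes had conditioned the buffer from which CB-100 was kept as the fraction above 100 kDa, and it was dosed at 1.5 mg per kg of body weight. Blood glucose was 190 to 230 mg/dL at entry, and RNA was isolated 2 to 8 weeks post injection, at a time not stated for each mouse. The injection protocol is repeated for the sham samples, so their own schedule is not known, and neither age nor sex is stated. A code in the titles, nd for CB-100 and d for sham, is left unexplained, and what it marks cannot be told apart from the injection.

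Glucose enters fat cells through facilitative transporters, of which Slc2a4 encodes the insulin-regulated form and Slc2a1 and Slc2a3 more basal forms. Hexokinase traps it as glucose phosphate, which either runs down glycolysis to pyruvate and lactate or is stored as glycogen. Brown fat is known for a high uptake of glucose when it is activated by cold or adrenergic signals, and part of that glucose leaves as lactate or serves lipid synthesis. Most steps are encoded by several genes whose proteins differ in control and in the tissue that favours them, so the paralogs of each step are set side by side.

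Promoter sequence was available from RefSeq (GRCm38.p6) for 30 of the 33 names, as windows from 250 bases before to 50 bases after a start site. Slc2a4, Slc2a3 and Slc16a7 had no entry. The windows were searched on both strands for 4 short motifs. ACGTG is the core bound by hypoxia-inducible factors, which are known regulators of glycolytic genes. It was found in 23 of 48 member windows (47.9%) and in 19.6% of all 32851 windows of the same length. The longer CACGTG, an E-box that contains the core on both strands, was found in 12.5% of member windows and 7.15% of all. The GC box GGGCGG was found in 58.3% of member windows and 35.7% of all. For the TATA box, searched as TATAAA, the shares were 6.25% and 13.6%. A match of these letters is a description and does not show a bound site. The matches to the core nearest the start site follow for genes on which the results turn, with the core in capitals, 5′ to 3′ on the gene's strand. Aldoc and Pygl are shown because they fell, and Aldoa, Hk2, Slc2a1 and genes of the lower route because the same core is found near the start of genes that did not pass in edgeR. The matches of Aldoc and Pkm lie after the start site, and the others before it.
Aldoc, chr11:78323090-78323114, plus strand: cccagggagtCACGTagctctgcgg
Pygl, chr12:70227800-70227824, minus strand: tttgcgcactACGTGacctggacgt
Aldoa, chr7:126799366-126799390, minus strand: tggctcgagtCACGTcctagcgggg
Pgk1, chrX:106186959-106186983, plus strand: atggaagtagCACGTctcactagtc
Pgam1, chr19:41911747-41911771, plus strand: ctccttgcttACGTGcgctccgtga
Pkm, chr9:59657225-59657249, plus strand: gcattctagtCACGTccgcggactc
Ldha, chr7:46845760-46845784, plus strand: tgggttcccgCACGTccgctgggct
Hk2, chr6:82774492-82774516, minus strand: tgagcacatcCACGTcactgtccgg
Slc2a1, chr4:119108699-119108723, plus strand: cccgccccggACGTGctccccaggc
Gpi1 is 1 of the 3 genes that fell and its window holds no core. The stretch before its start site that lies outside annotated exons is shown beside that of Pygl, with GC boxes and the core in capitals.
Gpi1, chr7:34230337-34230419, minus strand: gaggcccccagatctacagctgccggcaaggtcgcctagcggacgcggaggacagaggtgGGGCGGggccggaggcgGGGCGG
Pygl, chr12:70227684-70227840, minus strand: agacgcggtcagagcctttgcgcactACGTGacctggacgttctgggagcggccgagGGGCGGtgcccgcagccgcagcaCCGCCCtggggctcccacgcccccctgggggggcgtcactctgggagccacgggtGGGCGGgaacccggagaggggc

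Libraries held 10815101 to 28528471 counts. Levels are given in CPM, a gene's count relative to the library total after TMM scaling, which evens out differences in composition between libraries. By Xist and Y-linked genes, replicate 3 of both groups was male and the other 5 mice were female. Ucp1, the uncoupling protein that defines brown adipocytes, ran from 450 to 2237 CPM in CB-100 and from 46.1 to 875 CPM in sham, and Adipoq from 359 to 375 and from 484 to 808 CPM. A list of 12 brown adipocyte markers, Ucp1 among them, summed to 1676 to 4044 CPM in CB-100 and 1289 to 2618 CPM in sham, overlapping. Estimates in that list lay on both sides of 0, with a median log2 change of 0.15 and 0 of 12 called. The summed level of 10 general adipocyte markers was 8019 to 8856 CPM in CB-100 and 9603 to 12982 CPM in sham, without overlap, and 0 of the 10 passed the test. A list of 10 fibroblast and preadipocyte markers summed to 966 to 2068 CPM in CB-100 and 432 to 951 CPM in sham, again without overlap, with 0 of 10 called. Its highest levels in CB-100 were those of the collagens Col3a1, Col1a1 and Col1a2 (log2 change 1.87, 1.78 and 1.33). Dcn of that list was lower in CB-100 without overlap (log2 change -0.74, adjusted p = 0.055 in edgeR). Of 21 skeletal muscle markers 0 were called, none was at 0 in all libraries, and their sum ran from 1196 to 10298 CPM in CB-100 and from 2662 to 5190 CPM in sham, the highest in CB-100 replicate 3. In whole tissue, fewer cells of a type and less RNA per cell cannot be told apart, and the part of these markers in the values below was not tested except where the muscle covariate is named.

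Aldoc, Gpi1 and Pygl fell in brown fat of CB-100 mice, and no member rose, in edgeR's test. Aldoc encodes the aldolase C of glycolysis, Gpi1 the isomerase that turns glucose phosphate into fructose phosphate, and Pygl the phosphorylase that releases glucose units from glycogen. Aldoc was 6.37-fold, Pygl 2.24-fold and Gpi1 2.14-fold lower. These were 3 of 33 members past edgeR's quasi-likelihood test at a Benjamini-Hochberg adjusted p of 0.05. Of 16823 genes tested, 3.7% were called, 2.28% lower and 1.42% higher. Estimates were below 0 for 19 of 33 members, against 47.3% of all genes, with a median log2 change of -0.26 against 0.03 over all genes. At an unadjusted p under 0.05 there were 8 members lower and 3 higher, where 12.2% and 11.7% of all genes passed (23.9% in either direction). The groups did not overlap for 7 members lower and 3 higher in CB-100, against 12.2% and 11.1% of all genes (23.3% in either direction). These shares for higher members are near or below the background, and those for lower members are above it.

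The size of the list of calls depended on the library set and the tool. Aldoc was called whichever 1 library was omitted, and Gpi1 but not Pygl without sham replicate 2. Aldoc was the single member called when replicate 1 or 2 of CB-100, or replicate 1 or 3 of sham, was omitted, and with a skeletal muscle score as covariate. Calls over all genes dropped in the same settings, to 0.583% and 0.145% without replicate 1 and 2 of CB-100, 0.0812% and 0.0461% without replicate 1 and 3 of sham, and 0.0535% (9 genes) with the muscle score. With CB-100 replicate 3 omitted 1.12% of all genes were called, with CB-100 replicate 4 omitted 3.67% and with sham replicate 2 omitted 1.83%. DESeq2 called 7 members, 4 lower (Aldoc, Gpi1, Pygl and Ldhb) and 3 higher (Hk2, Pfkp and Pfkfb4), where it called 11.7% of all genes. In limma voom 4 were called, with Pfkfb4 higher, against 7.21% of all genes. No member was called in the 5 females alone, where edgeR called 0 genes (5 members lower and 2 higher at an unadjusted p under 0.05, 2578 genes in all).

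**Figure D1:**
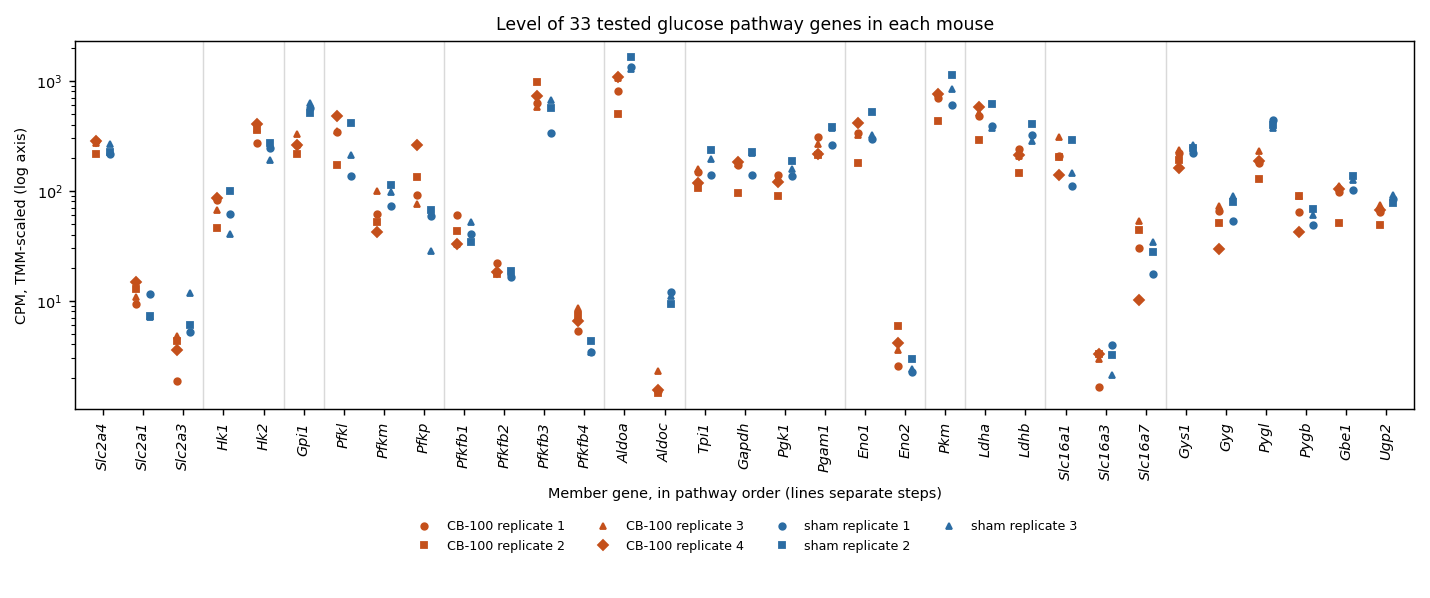
Level of each of the 33 tested members in CPM after TMM scaling, on a log axis, with 1 point per mouse, CB-100 in orange and sham in blue. Aldoc, Gpi1 and Pygl show the 4 CB-100 mice below the 3 sham mice by the widest margins, and most other genes overlap.

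**Figure D2:**
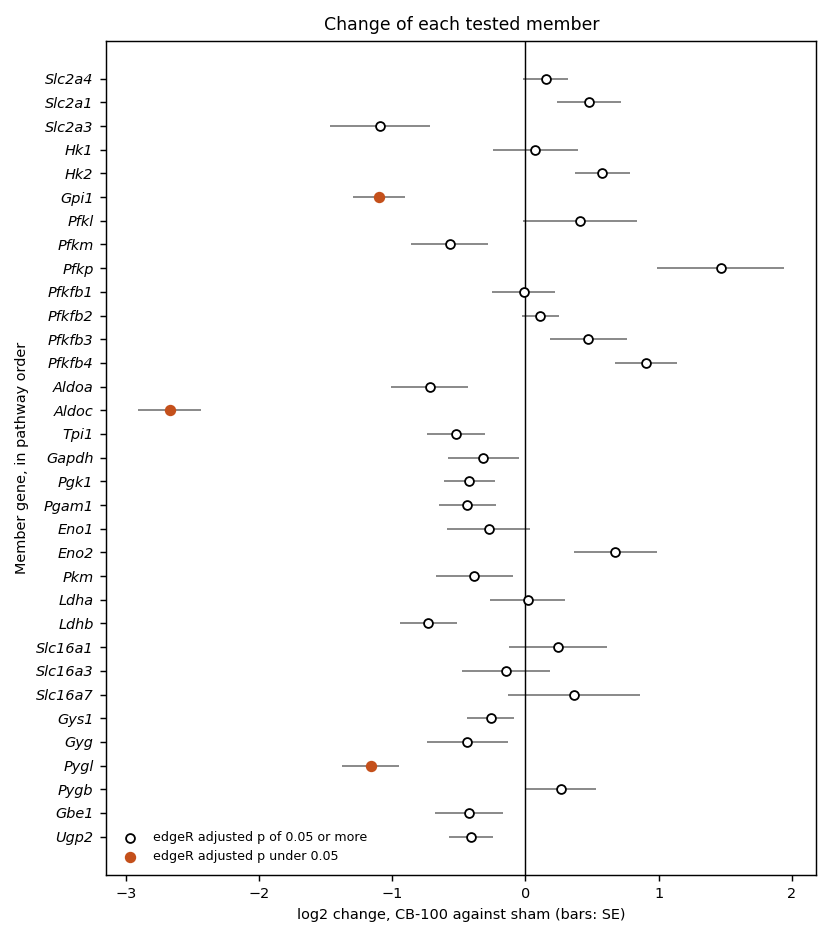
Log2 change of each tested member in CB-100 against sham with its standard error, in pathway order. The 3 filled points, Aldoc, Gpi1 and Pygl, have an edgeR adjusted p under 0.05.

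Among the glucose transporters 0 of 3 were called by edgeR, DESeq2 or limma voom (in edgeR 1 lower, Slc2a3, at an unadjusted p under 0.05). Slc2a4 was the main form. Its level per exon length was 68.0 CPM per kb in sham, against 2.45 for Slc2a1 and 1.06 for Slc2a3. Slc2a4 stood at 282, 217, 271 and 281 CPM in the CB-100 mice and 218, 224 and 268 CPM in sham. The groups overlapped (log2 change 0.15 with SE 0.17, adjusted p = 0.63 in edgeR). Slc2a1 stood at 9.37, 12.9, 10.8 and 14.8 CPM in CB-100 and 11.5, 7.21 and 7.05 CPM in sham, also overlapping (log2 change 0.48 with SE 0.24, adjusted p = 0.26 in edgeR). Slc2a3, a high-affinity form of neurons and blood cells, stood at 1.86, 4.29, 4.75 and 3.54 CPM in CB-100 and 5.21, 6.05 and 11.8 CPM in sham. The 4 CB-100 mice lay below the 3 sham mice, and the gene did not pass (log2 change -1.09 with SE 0.38, adjusted p = 0.12 in edgeR). Its estimate was -0.65 without sham replicate 3, the highest mouse.

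Hexokinase commits glucose to the cell. Hk2, the form favoured in insulin-sensitive tissues, was the more abundant at 39.5 CPM per kb in sham, against 7.84 for Hk1. Hk2 stood at 273, 361, 368 and 404 CPM in CB-100 and 244, 272 and 191 CPM in sham. The lowest CB-100 mouse and the highest sham mouse were nearly level at 272.7 and 272.2 CPM, yet the groups did not overlap (log2 change 0.58 with SE 0.21, adjusted p = 0.13 in edgeR). Hk2 passed in DESeq2 (adjusted p = 0.045) and not in limma voom (adjusted p = 0.077). Hk1 stood at 82.8, 45.4, 66.2 and 86.4 CPM in CB-100 and 61.6, 98.7 and 40.3 CPM in sham, a broad overlap (log2 change 0.07 with SE 0.32, adjusted p = 0.91 in edgeR).

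Gpi1 (chromosome 7, 34201330 to 34230336, minus strand) stood at 260, 215, 328 and 260 CPM in the CB-100 mice and 568, 513 and 624 CPM in the sham mice. All 4 CB-100 mice lay below all 3 sham mice. Gpi1 fell from 568 ± 55.5 (SD, n = 3) to 266 ± 46.6 CPM (SD, n = 4), with a log2 change of -1.10 and SE of 0.19 (adjusted p = 0.032 in edgeR). The Gpi1 call held when CB-100 replicate 3, CB-100 replicate 4 or sham replicate 2 was omitted and in no other omission. Over the 7 omissions the log2 change of Gpi1 was -1.01 to -1.21, with an edgeR adjusted p of up to 0.13. With the muscle score as covariate its log2 change was -1.01 (adjusted p = 0.11 in edgeR). Its counts were non-whole in 6 libraries and a gene model, Gm26762, overlaps it on the opposite strand, so its count is uncertain.

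Phosphofructokinase is the main control point of glycolysis, and its liver-type (Pfkl), muscle-type (Pfkm) and platelet-type (Pfkp) subunits can assemble together. None of the 3 was called in edgeR, and Pfkp was called in DESeq2. Pfkl led with 37.9 CPM per kb in sham, followed by Pfkm at 28.1 and Pfkp at 3.82. The last is lowered by a long union of exons of 13401 bases. Pfkp stood at 92.4, 134, 76.4 and 262 CPM in CB-100 and 58.4, 67.2 and 28.2 CPM in sham. Each CB-100 mouse was above each sham mouse, but CB-100 replicate 4 stood far above the rest (log2 change 1.46 with SE 0.48, adjusted p = 0.11 in edgeR; 0.98 without replicate 4, adjusted p = 0.15). Pfkp passed in DESeq2 (adjusted p = 0.013) and not in limma voom (adjusted p = 0.082). Its counts are uncertain, since they are non-whole in all 7 libraries and Pitrm1 overlaps it on the opposite strand. Pfkl stood at 345, 171, 348 and 482 CPM in CB-100 and 137, 410 and 213 CPM in sham, overlapping throughout (log2 change 0.41 with SE 0.43, adjusted p = 0.59 in edgeR). Pfkm stood at 61.4, 51.5, 98.5 and 41.9 CPM in CB-100 and 72.1, 112 and 98.0 CPM in sham (log2 change -0.57 with SE 0.29, adjusted p = 0.27 in edgeR). The CB-100 mouse with the most Pfkm, replicate 3, was also the one with the highest muscle markers. Without it the log2 change was -0.86 (edgeR adjusted p = 0.078), and with the muscle score as covariate -0.33 (adjusted p = 0.49).

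The Pfkfb genes encode bifunctional enzymes that make or remove the fructose bisphosphate which activates phosphofructokinase. Pfkfb3, the form with the highest kinase activity, led with 69.3 CPM per kb in sham, against 10.5 for Pfkfb1, 2.42 for Pfkfb2 and 0.76 for Pfkfb4. Pfkfb3 stood at 631, 972, 578 and 726 CPM in CB-100 and 334, 570 and 668 CPM in sham (log2 change 0.47 with SE 0.29, adjusted p = 0.35 in edgeR). Pfkfb4 was low, with 62 to 141 counts per library. It stood at 5.29, 7.40, 8.56 and 6.56 CPM in CB-100 and 3.44, 4.26 and 3.43 CPM in sham, without overlap (log2 change 0.91 with SE 0.23, adjusted p = 0.062 in edgeR). Pfkfb4 passed in DESeq2 (adjusted p = 0.0098) and limma voom (adjusted p = 0.036). Pfkfb1 (log2 change -0.01, SE 0.24) and Pfkfb2 (0.11, SE 0.14) had edgeR adjusted p of 0.98 and 0.66. The mice of each group overlapped in both.

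Aldolase splits the sugar bisphosphate into triose phosphates. Aldoa is the ubiquitous and muscle form and Aldoc a form of brain and other tissues. Aldoa was by far the main form, with 488 CPM per kb in sham against 3.32 for Aldoc, and was the most abundant member per exon length. Aldoc (chromosome 11, 78322968 to 78327781, plus strand) had 21, 16, 32 and 33 counts in the CB-100 libraries and 233, 135 and 237 in the sham libraries. This made 1.50, 1.46, 2.30 and 1.53 CPM in CB-100 and 12.1, 9.28 and 11.1 CPM in sham. The groups lay far apart. Aldoc fell from 10.8 ± 1.45 (SD, n = 3) to 1.70 ± 0.40 CPM (SD, n = 4). Its log2 change was -2.67 with SE 0.24 (adjusted p = 0.0051 in edgeR), and it fell by 2.59 to 2.85 without each library in turn (adjusted p of at most 0.033). In the 5 females its log2 change was -2.83 (edgeR adjusted p = 0.056). Neurons are known to express Aldoc. Markers of Schwann cells and neurons summed to 141 to 166 CPM in CB-100 and 91.2 to 104 CPM in sham. Of the 14 listed 7 were tested and 2, S100b and Pmp22, were called, both higher, while 2 of the 14 were at 0 in all libraries. The sum of that list was thus higher in CB-100, where Aldoc was lower. Its gene Cnp was lower in CB-100 without overlap and did not pass (log2 change -0.80 with SE 0.20, adjusted p = 0.058 in edgeR).

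Aldoa itself stood at 813, 504, 1051 and 1084 CPM in CB-100 and 1342, 1630 and 1291 CPM in sham. The groups did not overlap, and the gene did not pass (log2 change -0.72 with SE 0.29, adjusted p = 0.17 in edgeR). Its estimate was -0.53 to -0.85 with 1 library left out.

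The lower route from triose phosphate to pyruvate had 0 of 5 genes called by edgeR, DESeq2 or limma voom (in edgeR 1 lower, Tpi1, at an unadjusted p under 0.05), and the 5 estimates lay between -0.52 and -0.32. Tpi1, the triose phosphate isomerase, stood at 148, 106, 156 and 118 CPM in CB-100 and 140, 234 and 193 CPM in sham (log2 change -0.52 with SE 0.22, adjusted p = 0.19 in edgeR). The dehydrogenase Gapdh, often used as a reference gene, stood at 172, 94.6, 175 and 184 CPM in CB-100 and 138, 226 and 221 CPM in sham. Sham replicate 1 was below 3 of the 4 CB-100 mice (log2 change -0.32 with SE 0.27, adjusted p = 0.50 in edgeR). Pgk1, the kinase that makes the first ATP of the route, stood at 138, 89.8, 130 and 121 CPM against 136, 188 and 157 CPM. The phosphoglycerate mutase Pgam1 stood at 311, 212, 266 and 214 CPM against 262, 382 and 374 CPM. Pkm, the pyruvate kinase, stood at 694, 434, 755 and 755 CPM against 602, 1132 and 847 CPM. In each of these the mice of both groups overlapped (edgeR adjusted p = 0.22, 0.25 and 0.44). Per exon length Pkm and Pgam1 led, with 172 and 171 CPM per kb in sham. Counts of Gapdh, Pgk1, Pgam1, Pkm and Eno1 were non-whole in each library, and they are uncertain.

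Enolase precedes pyruvate kinase. Eno1, the ubiquitous form, had 70.5 CPM per kb in sham and Eno2, the neuronal form, 0.54. Eno1 stood at 335, 178, 324 and 416 CPM in CB-100 and 295, 524 and 318 CPM in sham (log2 change -0.28 with SE 0.31, adjusted p = 0.62 in edgeR). Eno2, with 36 to 88 counts per library, stood at 2.58, 5.94, 3.6 and 4.09 CPM in CB-100 and 2.24, 2.95 and 2.40 CPM in sham (log2 change 0.68 with SE 0.31, adjusted p = 0.23 in edgeR). Only CB-100 replicate 1 lay within the sham range.

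The 8 main genes from aldolase to lactate (Aldoa, Tpi1, Gapdh, Pgk1, Pgam1, Eno1, Pkm and Ldha), grouped after their values were seen, ranked the same way at their ends. CB-100 replicate 2 was the lowest and sham replicate 2 the highest of the 7 mice in 8 of 8. Over all tested genes CB-100 replicate 2 was lowest in 15.0% and sham replicate 2 highest in 11.1%. Among the 33 members these mice were lowest in 15 and highest in 12. The median log2 change of the 8 was -0.40, with 7 below 0. It was -0.26 without CB-100 replicate 2 and -0.25 without sham replicate 2, the second with 6 of 8 below 0.

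Lactate dehydrogenase exchanges pyruvate and lactate, with Ldha favouring lactate formation and Ldhb its use. Ldhb stood at 241, 146, 207 and 214 CPM in CB-100 and 323, 401 and 281 CPM in sham, without overlap. It did not pass (log2 change -0.73 with SE 0.21, adjusted p = 0.084 in edgeR), and passed in DESeq2 (adjusted p = 0.017). Its counts were non-whole in each library and are uncertain. Ldha stood at 478, 287, 508 and 573 CPM in CB-100 and 391, 609 and 370 CPM in sham (log2 change 0.02 with SE 0.28, adjusted p = 0.98 in edgeR). The group means were 462 ± 123 (SD, n = 4) and 457 ± 132 CPM (SD, n = 3). Per exon length Ldhb held 214 and Ldha 138 CPM per kb in sham, and 129 and 139 in CB-100. This order rests on unions of exons of 1570 bases for Ldhb and 3310 for Ldha. In counts Ldha was above Ldhb in each library, with a ratio of Ldhb to Ldha of 0.37 to 0.83.

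Monocarboxylate transporters carry lactate across the membrane. Slc16a1 led with 41.1 CPM per kb in sham, against 2.25 for Slc16a7 and 0.58 for Slc16a3, the form of highly glycolytic cells. Slc16a1 stood at 207, 203, 311 and 139 CPM in CB-100 and 110, 291 and 144 CPM in sham, and none of the 3 was called by edgeR, DESeq2 or limma voom, or reached an unadjusted p under 0.05 in edgeR. Log2 changes were 0.24 (SE 0.37) for Slc16a1, 0.36 (SE 0.50) for Slc16a7 and -0.14 (SE 0.33) for Slc16a3, with edgeR adjusted p of 0.69 to 0.82.

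Of 6 glycogen genes 1 fell, Pygl, and 5 of 6 estimates were below 0. Pygl (chromosome 12, 70190811 to 70231488, minus strand) stood at 179, 127, 228 and 187 CPM in CB-100 and 444, 396 and 372 CPM in sham. The lowest sham mouse was well above the highest CB-100 mouse. Pygl fell from 404 ± 36.6 (SD, n = 3) to 180 ± 41.6 CPM (SD, n = 4), with a log2 change of -1.16 and SE of 0.21 (adjusted p = 0.033 in edgeR). Its counts were whole and no other gene model overlaps its exons. The call held when CB-100 replicate 3 or 4 was omitted and in no other omission. Over the 7 omissions the log2 change was -1.03 to -1.30, with an adjusted p of up to 0.13, and with the muscle score as covariate the log2 change was -1.07 (adjusted p = 0.11 in edgeR). Pygb, the brain-type phosphorylase, stood at 64.5, 90.3, 89.0 and 42.2 CPM in CB-100 and 49.0, 68.7 and 60.7 CPM in sham (log2 change 0.26 with SE 0.26, adjusted p = 0.57 in edgeR).

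On the side of glycogen synthesis, Ugp2, which makes the UDP-glucose donor, stood at 64.1, 48.5, 74.6 and 67.1 CPM in CB-100 and 83.4, 77.9 and 92.5 CPM in sham. The groups did not overlap and the gene did not pass (log2 change -0.41 with SE 0.17, adjusted p = 0.17 in edgeR). Gys1, the glycogen synthase, stood at 221, 191, 235 and 161 CPM against 218, 245 and 263 CPM (log2 change -0.26 with SE 0.18, adjusted p = 0.40 in edgeR). Gyg, the glycogenin that primes the chain, and the branching enzyme Gbe1 had log2 changes of -0.44 (SE 0.30) and -0.42 (SE 0.26), with edgeR adjusted p of 0.41 and 0.34. In sham the order per exon length was Pygl (58.6 CPM per kb), Gys1 (50.6), Gyg (31.5), Ugp2 (27.6), Gbe1 (22.6) and Pygb (12.4). In CB-100 it was Gys1 (42.2), Pygl (26.2), Gyg (23.3), Ugp2 (20.7), Gbe1 (16.8) and Pygb (14.9).

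Ratios between paralogs within a library do not depend on the scaling between libraries. Of 14 ratios, 5 did not overlap between the groups, 3 lower and 2 higher in CB-100, where 21.5% of all pairs of tested genes did not overlap. This is above the background share. No ratio passed after adjustment over the 14 (lowest BH-adjusted p = 0.20), and 2 reached an exact two-sided permutation p of 0.0286, the smallest that 35 splits of 7 mice can give. These were Aldoc to Aldoa and Ldhb to Ldha. As a share of the pair's CPM per kb, Aldoc held 0.168, 0.266, 0.198 and 0.128% in CB-100 and 0.802, 0.507 and 0.766% in sham. The ratio was 3.71-fold lower in CB-100. Ldhb held 51.5, 51.8, 46.2 and 44.0% of its pair in CB-100 and 63.5, 58.1 and 61.6% in sham, a ratio 1.68-fold lower.

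The other 3 ratios without overlap had larger spread. The share of Pygb in the phosphorylase pair was 34.1, 50.5, 35.9 and 24.4% in CB-100 and 13.7, 19.9 and 19.0% in sham (exact permutation p = 0.0571). The share of Slc2a3 beside Slc2a4 was 0.321 to 0.950% in CB-100 and 1.14 to 2.07% in sham (exact permutation p = 0.0571). The share of Eno2 beside Eno1 was 0.884 to 3.71% in CB-100 and 0.648 to 0.869% in sham (exact permutation p = 0.0857), with the highest share in CB-100 replicate 2. Each of these 3 had a BH-adjusted p of 0.20. Pfkp to Pfkm was 4.02-fold higher on the mean, but overlapped between the groups.

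**Figure D3:**
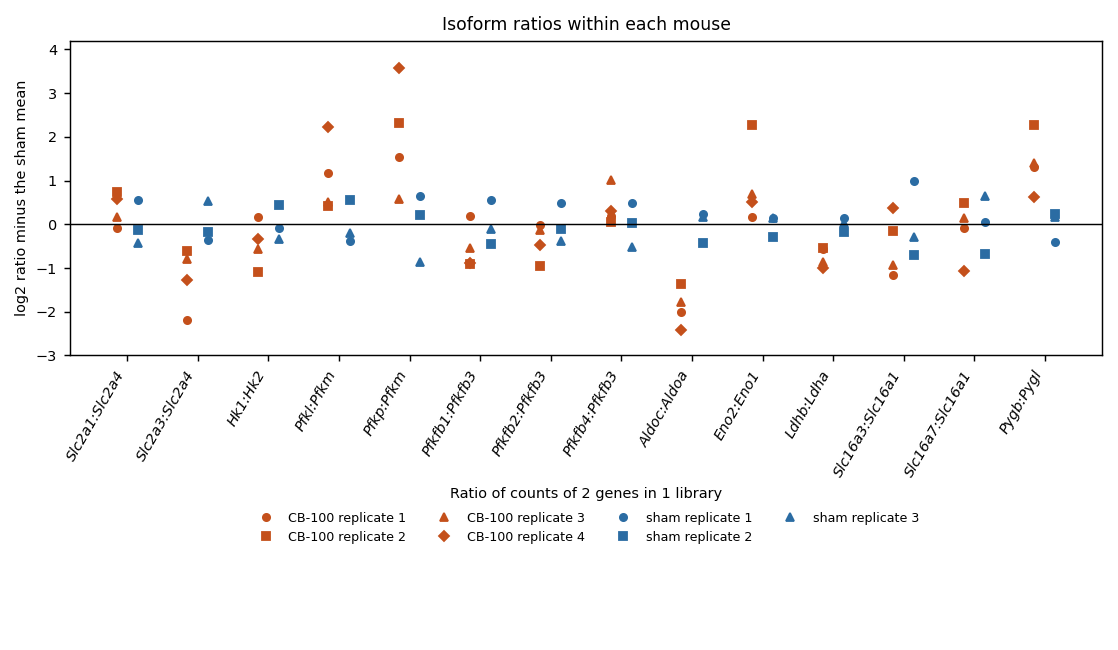
Log2 ratio of the counts of 2 paralogs in each library, minus the mean of the sham mice, for 14 ratios (orange CB-100, blue sham, 1 point per mouse). Aldoc to Aldoa and Ldhb to Ldha lie below the sham mice in each of the 4 CB-100 mice, and Pygb to Pygl lies above them.

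Summed over the 34 genes, members took 0.518 to 0.711% of the counts in the CB-100 libraries and 0.810 to 0.882% in the sham libraries, without overlap. After TMM scaling their summed level was 6390, 5119, 6964 and 7047 CPM in CB-100 and 6496, 8999 and 7472 CPM in sham, and the groups overlapped. Mitochondrially encoded genes took 22.3 to 36.3% of counts in CB-100 and 14.3 to 22.8% in sham. With them left out before scaling, the members called and the median log2 change of -0.26 stayed as given above.

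Other genes were read from 7 lists, which cover glucose metabolism, transcription factors of glycolytic genes and targets of hypoxia-inducible factors outside glucose metabolism. Of these, 116 genes were tested. In them edgeR called 8 genes lower and 0 higher, 6.90% against the 3.7% of all genes. DESeq2 called 11 lower and 3 higher, the last being Ppp1r3d, Egln1 and P4ha1, and limma voom 9 lower and 1 higher, Ppp1r3d. Among transporters and their control 1 of 11 fell, Txnip, which restrains glucose uptake (839.5 against 2217 CPM on the mean, log2 change -1.40, edgeR adjusted p = 0.033). It has non-whole counts and an opposite gene model, and is uncertain. Among other enzymes of glycolysis and gluconeogenesis 2 of 18 fell and 14 estimates were below 0. These were Pck2, the mitochondrial phosphoenolpyruvate carboxykinase, whose exons another gene overlaps (log2 change -2.60 with SE 0.22, adjusted p = 0.0051 in edgeR), and Pgp, a phosphatase that clears side products of glycolysis (log2 change -0.65 with SE 0.14, adjusted p = 0.047 in edgeR). Fbp1, a fructose bisphosphatase of gluconeogenesis, averaged 1.24 ± 1.27 CPM in the CB-100 mice (SD, n = 4), where sham mice averaged 7.46 ± 2.29 CPM (SD, n = 3), and did not pass (edgeR adjusted p = 0.075). Muscle forms from these lists, Pygm, Eno3 and Pgam2, gave log2 changes of -0.45, -0.41 and -0.05, with SE of 0.45 to 0.63.

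In the pentose phosphate and hexosamine branches 2 of 17 fell. Pgls, the lactonase of the pentose phosphate route, stood at 54.9, 45.8, 58.5 and 37.8 CPM in CB-100 and 118, 118 and 110 CPM in sham. Its groups lay far apart (log2 change -1.23 with SE 0.17, adjusted p = 0.020 in edgeR), and its count is uncertain, since Fam129c overlaps it and values were non-whole. Akr1b3, the aldose reductase of the polyol route, gave -0.67 with SE 0.15 (adjusted p = 0.048 in edgeR, uncertain for non-whole counts). The dehydrogenases G6pdx and Pgd, which make NADPH, gave 0.11 and 0.44 and did not pass. Of 30 other glycogen genes 0 passed in edgeR (1 higher and 0 lower at an unadjusted p under 0.05, with a median of -0.13). Ppp1r3d, which brings a phosphatase to glycogen, had the smallest p (log2 change 1.09 with SE 0.28, adjusted p = 0.063 in edgeR). It passed in DESeq2, in limma voom and in edgeR with no filter on low counts. Ppp1r3a, another such subunit, went the other way and passed as lower in edgeR without CB-100 replicate 3. With all 7 libraries its log2 change was -0.99 with SE 0.76 (adjusted p = 0.46 in edgeR). Ppp1r3a stood at 1.43, 1.92, 12.4 and 1.77 CPM in CB-100, highest in replicate 3, the mouse with the highest muscle markers. Of 6 other genes of lactate transport 0 passed in edgeR, also at an unadjusted p under 0.05, and Bsg, the chaperone of the lactate transporters, gave -0.10.

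Among 16 transcription factors of glycolytic genes 1 fell, the MYC family factor Mycl, 8.02-fold lower (adjusted p = 0.046 in edgeR). Of the 16 estimates 11 were below 0 and 5 above. Hif1a and Epas1, which encode oxygen-regulated subunits of hypoxia-inducible factors, gave -0.01 (SE 0.14) and -0.09 (SE 0.19). Hif3a, a further subunit gene, gave -1.85 (SE 0.49), and Arnt, which encodes their partner, -0.41 (SE 0.14). Both were lower in CB-100 without overlap and did not pass (adjusted p = 0.065 and 0.12 in edgeR). Hif3a, with 9 to 151 counts per library, passed in DESeq2 and in edgeR with no filter on low counts. Mlxipl, the carbohydrate-response factor ChREBP, gave 0.42 (SE 0.19, edgeR adjusted p = 0.22). Of 19 targets of hypoxia-inducible factors outside glucose metabolism 2 fell and 13 estimates were below 0. Pdk1, a kinase that restrains pyruvate dehydrogenase, fell by 1.05 (SE 0.20, edgeR adjusted p = 0.034) and Bnip3, a mitophagy receptor with uncertain counts, by 1.34 (SE 0.24, edgeR adjusted p = 0.032). Vegfa, the vascular growth factor, gave 0.41 (SE 0.19, edgeR adjusted p = 0.23), so that members of the list pointed both ways. Of these 8 genes, Pck2 alone stayed called without sham replicate 1, sham replicate 3 or CB-100 replicate 2.

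**Figure D4:**
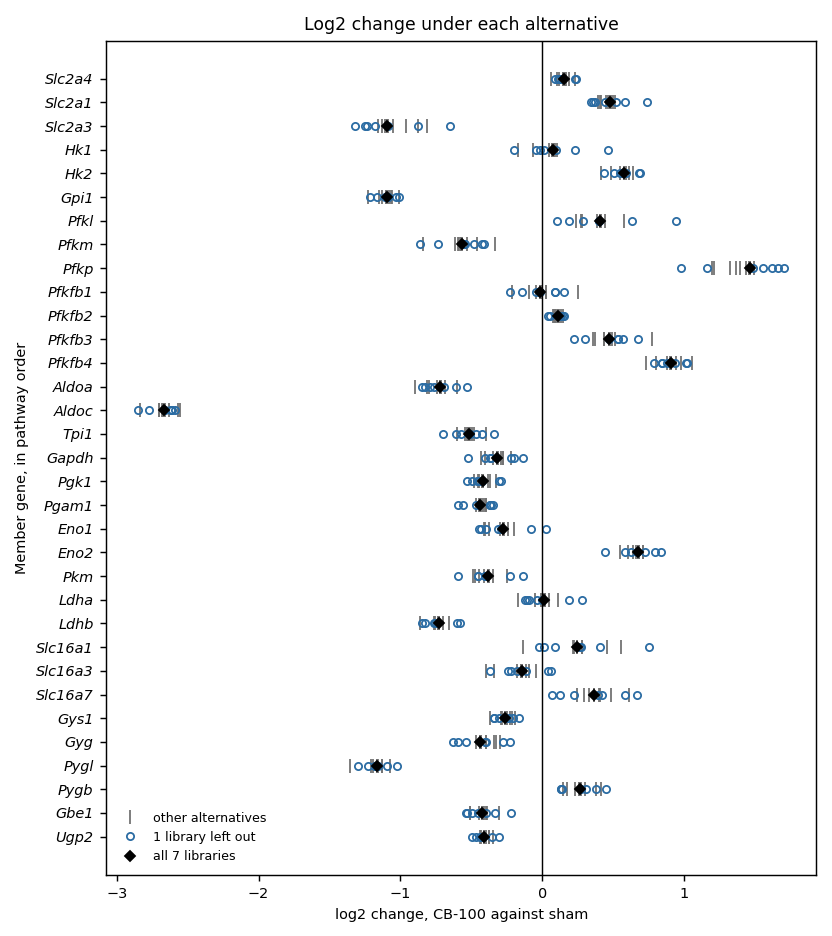
Log2 change of each member with all 7 libraries (diamond), with 1 library left out (circles) and under the other alternatives (bars). Aldoc stayed between -2.85 and -2.56, Gpi1 between -1.23 and -1.01 and Pygl between -1.36 and -1.03, while Hk1, Pfkfb1, Ldha, Eno1, Slc16a1 and Slc16a3 crossed 0.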

How the data were processed

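RNA of brown adipose tissue was sequenced on an Illumina NovaSeq. Per the labels' protocols, STAR 2.7.9a aligned the reads to the primary assembly of Ensembl release 101. Salmon 1.5.2, featureCounts 2.0.3, limma and edgeR appear in the submitters' processing notes without a stated use. For strandedness, library kit and counting options, nothing is given in the sources used here. Expected counts per gene were deposited in a single table, without normalization and partly non-whole. Of the 34 member rows, 17 had non-whole counts and 14 overlapped exons of another gene, and such counts are uncertain. Beside those named in the results, overlaps touch Slc2a1, Hk1, Pfkm, Pfkfb1, Pfkfb2, Aldoa, Tpi1, Gapdh, Pkm, Slc16a7, Gys1 and Ugp2.

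Repeated lines (287 of 55774, with identical values) were removed and expected counts rounded. Groups came from the treatment label, and replicate numbers follow sample order. Nothing but the animal codes in the titles says that samples are separate mice, so the p-values rest on the spread of these 7 libraries, which may be technical in part. Genes passing edgeR's filterByExpr (16823) were scaled by TMM and tested with edgeR 4.0.16 in R 4.3.3 (estimateDisp and glmQLFit, robust, glmQLFTest, group only), adjusted over all of them by Benjamini-Hochberg at 0.05. CPM use TMM-scaled totals. The SE is the size of the log2 change over the square root of F. The test was tried on simulated data with known changes. Ratios used 0.5 added counts and an exact permutation test. Exon length, coordinates and overlaps came from GENCODE M21 (GRCm38), which held 99.5% of identifiers. The muscle score was the mean log2 CPM of 21 markers (prior count 2).

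Members, lists and tests were chosen with earlier results of these data known. Named are members, with each mouse's value where the unadjusted p was under 0.05, for the leading gene of a step and for paralog pairs without overlap, and in other lists the genes called or up to 3 with the smallest p. Further genes of those lists, and values of some other members, were added after their values were seen. Alternatives were DESeq2 1.42.0, its size factors, upper quartile scaling, no filter or 1 CPM in 3 libraries, limma voom 3.58.1, each library left out, mitochondrially encoded genes left out, and sex or muscle score as covariate. An analysis of females and a correction for exon length and GC content (mgcv 1.9.3) were added after seeing the data.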

Additional observations from a re-analysis of the deposited data

Results flagged for a closer look

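Among the CB-100 mice, 2 values stood apart from the others by Dixon's test at the 95% level, among 33 members and 14 ratios tested in the group of 4, where chance gives about 1 in 20. Aldoc in CB-100 replicate 3 stood at 2.30 CPM, against 1.46 to 1.53 CPM in the other 3 CB-100 mice. Gapdh in CB-100 replicate 2 stood at 94.6 CPM, against 172 to 184 CPM in the other 3.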

How the results depend on the processing

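No paired analysis was possible because the groups share no replicate numbers in the labels. Of 33 members 3 were called, and 7 in DESeq2, 1 with the muscle score as covariate, 0 in the 5 females and 1 to 3 with 1 library left out. The 8 calls in the other lists became 14 in DESeq2, 2 with sex and 1 with the muscle score as covariate, 0 in the females, and 1 to 7 with 1 library left out. Over all genes 3.7% were called, against 11.7% in DESeq2, 1.41% with sex, 0.0535% with the muscle score, 0 in the females and 0.0461 to 3.67% with 1 library left out. The 5 ratios without overlap were 5 to 8 with 1 library left out. Fewer mice make it easier for groups not to overlap. The share over all pairs of genes, 21.5% with all 7 libraries, was not computed for these omissions, so no rise can be read from the count. The median log2 change of members stayed below 0 under all 18 alternatives. Signs changed only in genes and ratios that had not passed. Ldha gave -0.0090 with no filter, -0.051 in limma voom, -0.17 in females and -0.12 to 0.28 with 1 library left out. Pfkfb1 gave 0.027 with upper quartile scaling, 0.025 with the length and GC correction, 0.25 in females and -0.23 to 0.15 with 1 library left out. Hk1 gave -0.066 with the length and GC correction, -0.17 in females and -0.20 to 0.46 with 1 library left out. Slc16a1 gave -0.14 in females. With 1 library left out, Slc16a1 gave -0.024 to 0.76, Slc16a3 -0.37 to 0.066 and Eno1 -0.44 to 0.027. The log2 difference in the ratio of Slc16a3 to Slc16a1 was then -0.81 to 0.033, and of Slc16a7 to Slc16a1 -0.47 to 0.19. The cause was not tested. Low counts, as in Aldoc, Pfkfb4 and Eno2, limit precision.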
